A study of Mus musculus with 2 samples.

Results

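The enzymes, transporters and regulators that carry glucose and fructose through glycolysis, glycogen and the pentose phosphate pathway are described here in the livers of ICR mice, an outbred stock, given diosgenin in the diet. Diosgenin is a plant steroidal sapogenin. The genes were taken by symbol from a list of 32 drawn up by pathway, with earlier results of these data known. A probe set, the group of short probes that reads one transcript on the array, was used if its annotation held a single symbol. By this rule 28 of the 32 genes were measured here, by 63 of the 34958 probe sets with 1 symbol, and all 28 passed the signal filter. Pfkfb1, Gpi1, Eno1 and G6pdx were not analysed here.

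There were 2 Affymetrix arrays. The control array came from mice on the basal diet CRF-1, and the diosgenin array from mice on the same diet with 500 ppm diosgenin. Feeding lasted 4 weeks from the age of 9 weeks, so the livers were taken at 13 weeks, and each array held RNA pooled from 3 mice. With 1 array per diet no spread between mice or pools can be had, no test was possible, and every difference below is one between 2 pools. Cages held 3 mice, so cage and diet cannot be told apart if each diet was a single cage. Neither the hour of collection nor whether food was removed beforehand is given in the sources used here.

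Values are array signals on a linear scale, followed by the log2 ratio, diosgenin over control, and higher and lower always refer to the diosgenin pool. For the log2 ratio, signals below 10.7, the floor, were raised to it, and a gene needed a mean signal of 28.4, which left 9732 genes. Printed signals and sums of signals are as deposited, without the floor. Each gene is represented by its brightest probe set. Where a gene has several, the others are a second reading of the same 2 pools. Their log2 ratios had a standard deviation of 0.28 within genes, equal to 1.21-fold, and of 0.16 where mean signals were 377 or more. Levels of different genes are not compared, since each probe set has its own brightness.

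Both arrays carried a liver profile and had a common scale. All 9 hepatocyte markers passed the filter, with signals that summed to 55094 for the control and 53214 for the diosgenin pool. Among other cell types, summed markers were 1548 and 1146 for liver endothelium (6 of 6 measured genes above the filter, all 6 lower) and 1984 and 2416 for stellate cells (5 of 6 above the filter, all 5 higher). They were 2004 and 2186 for Kupffer cells and macrophages (7 of 7 above the filter) and 106 and 58.1 for biliary cells (1 of 4). For red cells (1 of 2) they were 1319 and 1140, of which Alas2 alone gave 1309 and 1123. For pancreatic acinar cells (2 of 4) they were 1280 and 1218, of which Cela1 alone gave 1212 and 1150. The stellate marker under the filter, Col1a1, was lower, at 31.3 and 17.2, and Col3a1 was nearly level, at 351 and 356. No lymphocyte marker (0 of 4), skeletal muscle marker (0 of 5) or adipocyte marker (0 of 2) passed the filter, with summed signals of 29.7 and 63.2, 41.1 and 51.5, and 23.5 and 22.3. Krt7, Cd3g, Myh4, Tnnt3, Adipoq and Cpa1 were under the floor on both arrays and entered these sums as deposited. In a whole tissue, fewer cells of a type and less RNA per cell cannot be told apart.

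The liver takes up glucose and fructose after a meal, burns part of them by glycolysis, stores part as glycogen, and sends part through the pentose phosphate pathway to make NADPH and ribose. Between meals it releases glucose again, from glycogen and by gluconeogenesis, which runs most steps of glycolysis backwards. Insulin, glucagon, the carbohydrate sensor ChREBP and the circadian clock are known to control the rate-limiting genes, whereas the enzymes of the reversible middle steps are abundant and are often used as references.

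The signals of most of the 28 genes were nearly the same on both arrays, whereas further genes of these pathways, given below, spread more widely. Signals were higher for 15 of the 28 genes and lower for 13, and the median log2 ratio was 0.013 against −0.0053 over all 9732 genes. Within 1.1-fold of each other were 19 genes and within 1.2-fold 25. The 3 genes at least 1.2-fold apart were all higher, namely Slc2a2, Ugp2 and Pfkfb3. At least 1.2-fold higher were 14.5% of all genes above the filter, and at least 1.2-fold lower 15.3%. The 3 of 28 higher genes are near this background and the 0 of 28 lower genes below it, without allowance for brightness. At least 1.5-fold apart were 0 of the 28 genes in either direction, against 2.84% of all genes higher and 3.61% lower. Ratios of bright genes scatter less. Of the 28 genes 23 had mean signals of 377 or more, as had 2433 of all genes, called bright here. Among the 23, a difference of 1.2-fold or more was seen upward in 2 and downward in 0, against 7.69% and 7.93% of the bright genes, and one of 1.5-fold in 0, against 1.11% and 1.15%.

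**Figure D1:**
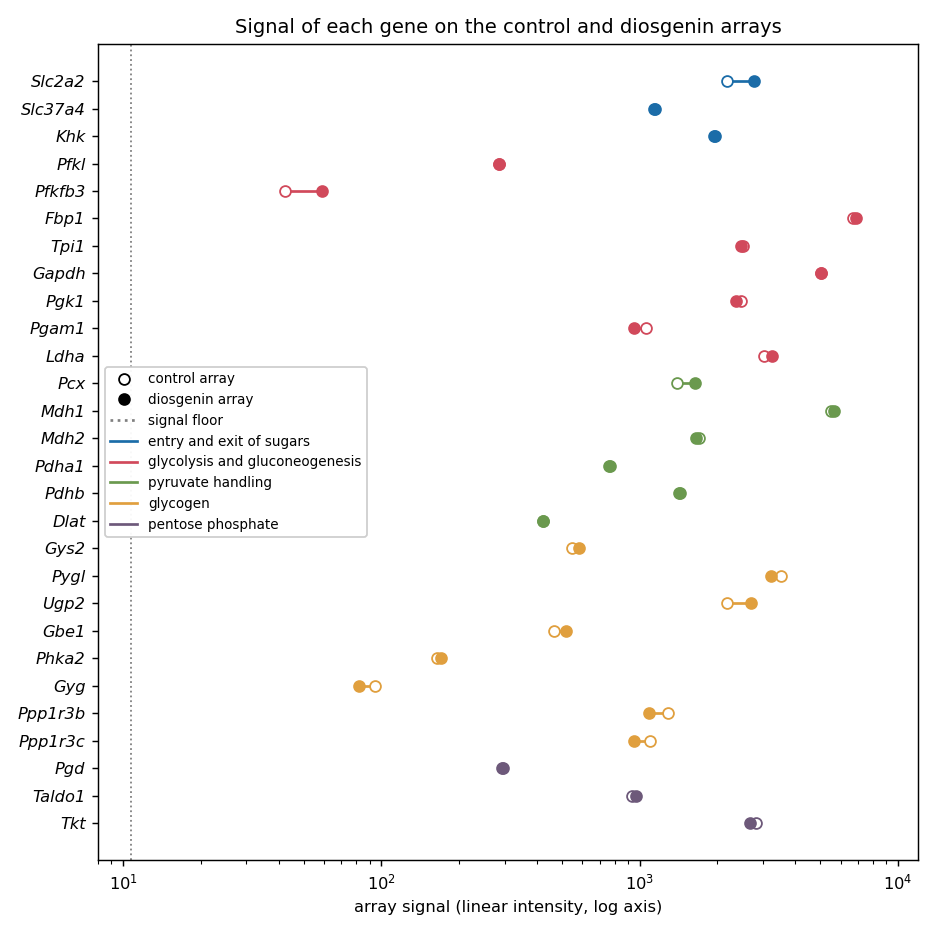
Array signal of the brightest probe set of each of the 28 genes, on a log axis, with open circles for the control array, filled circles for the diosgenin array and a line joining both. Most pairs of circles coincide, whereas Slc2a2 (2187 and 2769), Ugp2 (2178 and 2708) and Pfkfb3 (42.4 and 58.6) are visibly separated.

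**Figure D2:**
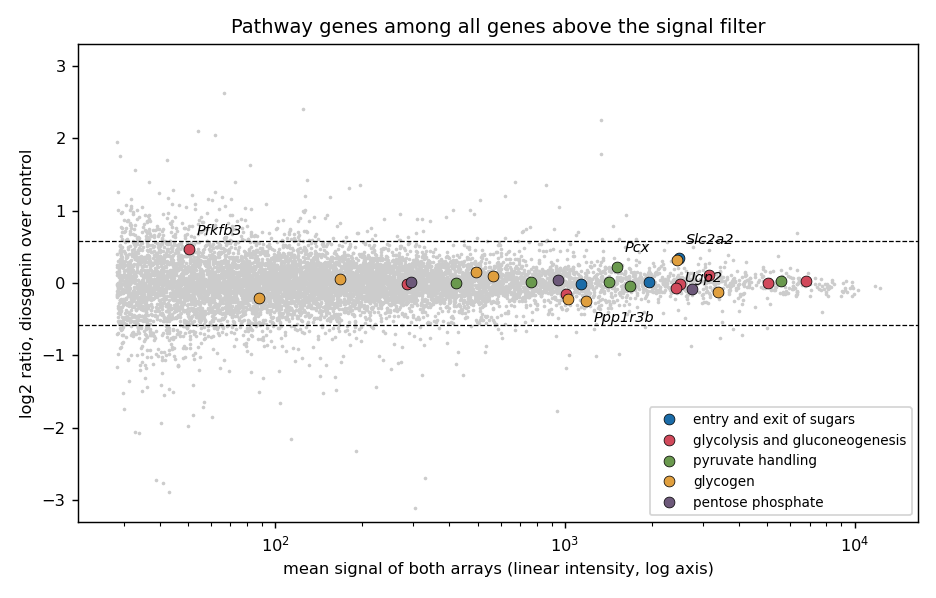
Log2 ratio of the diosgenin over the control array against mean signal (log axis) for all 9732 genes above the filter in grey, with the 28 genes coloured by pathway step and dashed lines at 1.5-fold in each direction. All 28 lie between the dashed lines, from −0.24 for Ppp1r3b to 0.47 for Pfkfb3.

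Sugar enters and leaves hepatocytes through few proteins, and of these the main transporter stood out. Slc2a2 encodes GLUT2, the high-capacity carrier that lets glucose and fructose cross the hepatocyte membrane in both directions. It read 2187 in the control and 2769 in the diosgenin pool, 1.27-fold higher, with a log2 ratio of 0.34. A ratio at least this high was found in 4.32% of bright genes and in 9.7% of all genes above the filter. Of its relatives in the further list, Slc2a1 was lower, at 131 and 100, a log2 ratio of −0.39, in all 3 probe sets. Slc2a4 was higher, at 34.1 and 44.3, a log2 ratio of 0.38, so both had wider ratios than Slc2a2. Slc2a2 had 1 probe set, so no second reading was at hand. Slc37a4, which carries glucose 6-phosphate into the endoplasmic reticulum for release as glucose, had 1145 and 1137. Khk, the kinase that traps fructose, had 1934 and 1957. Both were level, with log2 ratios of −0.010 and 0.018.

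The promoter of the gene with the higher transporter signal is shown because the ratio was among the widest here. The 250 bases before the start of Slc2a2, from RefSeq on build GRCm38.p6 (chr3:28697653-28697902, plus strand), were searched for the GC box GGGCGG on both strands and for the E-box CACGTG. They held 0 of either, had a GC content of 47.2%, and are printed in lower case throughout because no motif was found.
Slc2a2: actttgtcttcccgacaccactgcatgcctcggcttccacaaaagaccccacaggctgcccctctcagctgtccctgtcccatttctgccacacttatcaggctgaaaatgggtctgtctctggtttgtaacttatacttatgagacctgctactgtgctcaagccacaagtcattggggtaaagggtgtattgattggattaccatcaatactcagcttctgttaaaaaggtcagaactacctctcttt

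The steps of glycolysis and gluconeogenesis differed little, apart from one regulator. Of the 8 genes measured, 3 had higher and 5 had lower signals, and their median log2 ratio was −0.0058. Fbp1, the phosphatase that commits carbon to gluconeogenesis, had signals of 6715 and 6860, and Pfkl, the liver subunit of the opposing phosphofructokinase, had 286 and 284. The log2 ratios of this opposing pair were 0.031 and −0.0070. A second Pfkl probe set read 170 and 216, a log2 ratio of 0.34, so the readings of this gene differ.

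Pfkfb3 makes fructose 2,6-bisphosphate, the small molecule that turns phosphofructokinase on and fructose bisphosphatase off. It read 42.4 in the control and 58.6 in the diosgenin pool, 1.38-fold higher, with a log2 ratio of 0.47, the highest of the 28 genes. It was also the dimmest of them, and 5.09% of all genes above the filter had a ratio at least as high. Its other probe set read 5.80 and 11.03, under the filter and with the control signal under the floor. With the median of both probe sets the log2 ratio was 0.25, under 1.2-fold. Pfkfb3 is also expressed in endothelial cells, whose summed markers were lower on the diosgenin array, and the part of this in the Pfkfb3 value was not tested.

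The middle enzymes, which work in both directions, were level by most probe sets. Tpi1, the triose phosphate isomerase, had 2504 and 2477, and Gapdh, the dehydrogenase of the next step, had 5050 and 5034. Pgk1, the first ATP-forming kinase, had 2477 and 2358, a log2 ratio of −0.071, and Pgam1, the phosphoglycerate mutase, had 1059 and 954, a log2 ratio of −0.15. Ldha, which interconverts pyruvate and lactate, had 3016 and 3262, 1.08-fold higher. Gapdh is the flattest of this set, with log2 ratios of −0.0047, −0.0070 and −0.045 in its 3 probe sets, which lie at the 5′ end, the middle and the 3′ end of the transcript. A further 3 probe sets shared between Gapdh and other loci had log2 ratios of −0.013, −0.0075 and −0.048.

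A single reading went far from the rest. The third probe set of Pgk1 had 100 in the control and 643 in the diosgenin pool, a log2 ratio of 2.68, whereas the other two had −0.071 and −0.17 at signals from 2153 to 2477. Its name ends in _x_at, which marks probes that can bind several transcripts, but so does that of the probe set at −0.17. Among 6527 such additional probe sets of 4079 genes, 119 were at least 1 log2 unit from the brightest probe set of their gene and 13 at least 2 units. At least as far as this Pgk1 probe set were 7, itself included. The brightest probe sets represent Pgk1 here, and what the odd one read was not tested.

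**Figure D3:**
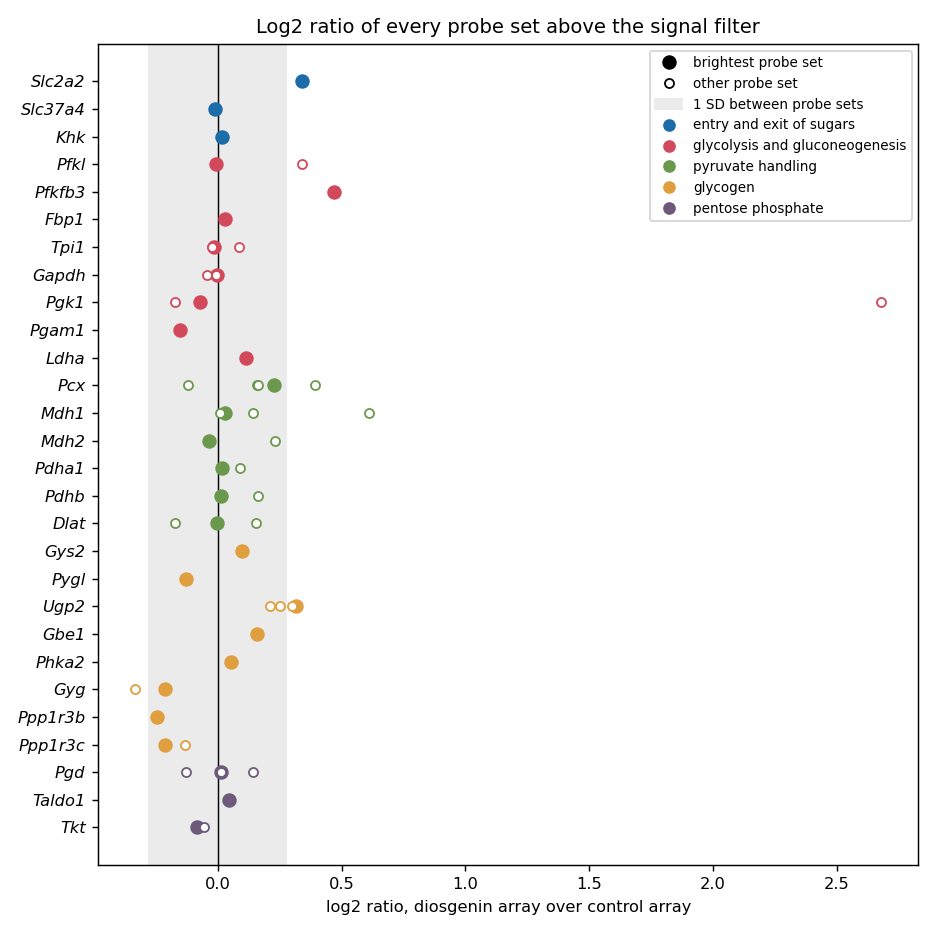
Log2 ratio of each of the 57 probe sets above the filter, 1 row per gene, with large filled circles for the brightest probe set, small open circles for the others and a grey band of 1 standard deviation between probe sets (0.28) to each side of 0. The 5 Ugp2 circles lie close together from 0.21 to 0.31, whereas 1 Pgk1 circle lies alone at 2.68.

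Pyruvate can be carboxylated, oxidised or exported, and its carboxylase had a modestly higher signal. Pcx encodes pyruvate carboxylase, which opens gluconeogenesis and refills the citric acid cycle. Its signal was 1399 and 1638, 1.17-fold higher with a log2 ratio of 0.23, and 4 of its 5 probe sets were higher. The readings ran along the transcript. The probe set at the 5′ end gave 176 and 162, those in the middle gave 260 and 291 and 414 and 544, and the one at the 3′ end gave 1082 and 1207. The signal of the 3′ over the 5′ probe set, a usual measure of RNA integrity, was thus 6.16 for the control and 7.46 for the diosgenin pool in the case of Pcx. The same ratio was 0.82 and 0.80 for Gapdh and 1.86 and 2.03 for Actb. The part of RNA integrity in the Pcx value was not tested.

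The pyruvate dehydrogenase complex and the malate dehydrogenases were level. Pdha1 and Pdhb, the subunits of its first enzyme, had 761 and 770, and 1417 and 1429. Dlat, its acetyl-transferring core, had 422 and 421, with log2 ratios between −0.17 and 0.15 over 3 probe sets. Mdh1, the cytosolic malate dehydrogenase of the malate shuttle, had 5522 and 5628, and Mdh2, its mitochondrial counterpart, had 1694 and 1653. The second Mdh2 probe set was higher, at 1190 and 1399, a log2 ratio of 0.23. The 6 genes of this step comprised 4 higher and 2 lower ones and had a median of 0.015.

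Glycogen genes split evenly, 4 of 8 to each side, and their median log2 ratio was −0.037. The enzymes that make UDP-glucose, extend the chain and branch it read higher, as did a kinase subunit, while the primer protein, both scaffold proteins and the phosphorylase read lower. Ugp2 makes UDP-glucose, the donor for glycogen and for glucuronidation. It read 2178 in the control and 2708 in the diosgenin pool, 1.24-fold higher. All 5 of its probe sets were higher, with log2 ratios of 0.21, 0.25, 0.30, 0.30 and 0.31. Those of Pcx, the other gene with 5 above the filter, ran from −0.12 to 0.39. A ratio at least as high as 0.31 was found in 5.14% of bright genes. Gys2, the liver glycogen synthase, had 546 and 585, 1.07-fold higher, and Gbe1, the branching enzyme, had 466 and 519, 1.12-fold higher. Neither had a second probe set, and both are within 1 standard deviation between probe sets.

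The promoter windows of Ugp2 are shown since its higher signal was repeated in every probe set. RefSeq gives 2 starts for Ugp2 on the minus strand of GRCm38.p6, and the 250 bases before each are chr11:21371268-21371517 and chr11:21370630-21370879. Capitals mark GC boxes (GGGCGG or its reverse complement CCGCCC), of which the window of the distal start held 1 and that of the proximal start 2. Both held 0 E-boxes, and their GC contents were 64.0% and 73.6%.
Ugp2 distal start: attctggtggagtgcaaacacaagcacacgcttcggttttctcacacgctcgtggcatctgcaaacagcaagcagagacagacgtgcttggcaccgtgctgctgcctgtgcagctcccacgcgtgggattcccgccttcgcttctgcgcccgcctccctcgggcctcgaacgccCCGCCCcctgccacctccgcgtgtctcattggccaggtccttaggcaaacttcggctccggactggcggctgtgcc
Ugp2 proximal start: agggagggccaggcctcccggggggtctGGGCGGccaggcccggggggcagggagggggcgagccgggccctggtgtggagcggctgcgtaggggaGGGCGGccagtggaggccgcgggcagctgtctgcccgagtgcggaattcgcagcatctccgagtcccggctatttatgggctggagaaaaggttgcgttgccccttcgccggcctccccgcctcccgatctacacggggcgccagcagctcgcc

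The lower glycogen genes were led by the scaffolds. Ppp1r3b and Ppp1r3c encode subunits that bring protein phosphatase 1 to the glycogen particle, where it switches glycogen synthase on and phosphorylase off. Ppp1r3b had 1283 and 1084, 1.18-fold lower with a log2 ratio of −0.24, the lowest of the 28 genes, and 9.29% of bright genes had a ratio at least as low. Ppp1r3c had 1100 and 949 by its brightest probe set, a log2 ratio of −0.21, and 416 and 380 by its second, a log2 ratio of −0.13. Gyg encodes glycogenin, the protein primer of the glycogen chain. It had 94.8 and 81.9, a log2 ratio of −0.21, and its second probe set had 61.4 and 48.8, a log2 ratio of −0.33. Pygl, the liver phosphorylase that breaks glycogen down, had 3536 and 3236, 1.09-fold lower, and Phka2, a regulatory subunit of the kinase that activates it, had 164 and 170. The signals of the glycogen genes therefore ran both ways among proteins of synthesis, and Ugp2, at 1.24-fold, had the widest difference of the 8 by brightest probe set.

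The 3 measured genes of the pentose phosphate pathway had log2 ratios between −0.082 and 0.045. Pgd, which yields NADPH in the oxidative branch, had 294 and 296, with log2 ratios between −0.13 and 0.14 over 4 probe sets. Taldo1 and Tkt, the transaldolase and transketolase of the sugar-exchanging branch, had 936 and 965, and 2831 and 2674. Their log2 ratios were 0.045 and −0.082, and the second bright Tkt probe set gave −0.055. Of the 8 further genes of this pathway above the filter 6 were higher, among them Pgls at 1.01-fold and Prps1 at 1.04-fold, and 2 lower. Their median log2 ratio was 0.10. A difference of 1.2-fold or more was seen upward in 3 and downward in 0, against 14.5% and 15.3% of all genes above the filter. Those 3 were Rpia, Rbks and H6pd, the latter 2 named after their values were seen. Rpia was 1.46-fold higher by 1 probe set, at 52.3 and 76.3. The ribokinase Rbks was 1.44-fold higher by the brighter of 2 probe sets, both higher. H6pd, the hexose 6-phosphate dehydrogenase of the endoplasmic reticulum, was 1.24-fold higher.

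Where a gene had several probe sets above the filter, they were of one sign in 8 of 15 cases. In 4 of these all were higher (Mdh1, Pdha1, Pdhb and Ugp2) and in 4 all were lower (Gapdh, Gyg, Ppp1r3c and Tkt). The signs were mixed in the other 7 (Pfkl, Tpi1, Pgk1, Pcx, Mdh2, Dlat and Pgd). A further 13 genes had 1 probe set above the filter.

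The rest of the same pathways, a list of 109 genes with 100 measured and 71 above the filter, spread more widely, at lower signals, with a median mean signal of 221 against 1303 for the 28 genes. Higher signals were found for 41 of the 71 and lower ones for 30, and their median log2 ratio was 0.051. A difference of 1.2-fold or more was seen upward in 17 and downward in 11, against 14.5% and 15.3% of all genes above the filter. One of 1.5-fold or more was seen upward in 2 and downward in 4, against 2.84% and 3.61%. The 2 higher ones were Ppargc1a, a coactivator of gluconeogenic genes, at 38.7 and 70.9, and Got1, a cytosolic aminotransferase of the malate shuttle, at 688 and 1152. The 4 lower ones were Pdk4, Gsk3b, Pgm3 and G6pc3. Pdk4, a kinase that shuts pyruvate dehydrogenase off, had 130 and 46.1, 2.83-fold lower, and G6pc3, a widely expressed glucose 6-phosphatase, had 51.3 and 18.3, a log2 ratio of −1.48, each by 1 probe set. The diosgenin signal of G6pc3 was below the filter level of 28.4, so this gene passed through the control signal and had to differ. Gsk3b, a kinase that inhibits glycogen synthase, had 198 and 116, but its 4 probe sets ranged from −0.77 to 0.52. Pgm3, an enzyme of hexosamine synthesis, had 176 and 106. Rpia and Pkm completed the 8 widest ratios, with log2 ratios of 0.54 each, at 52.3 and 76.3, and 32.8 and 47.8.

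The kinases that act on the pyruvate dehydrogenase complex spread more widely than its measured subunits. Of the subunits in the further list, Pdhx had 231 and 209, a log2 ratio of −0.14, and Dld had 636 and 619, −0.038. The kinases also had lower mean signals than Pdha1, Pdhb and Dlat, and ratios at lower signals scatter more. Pdk1 had 307 and 396, 1.29-fold higher, and all 3 of its probe sets were higher. Pdk2 had 332 and 416, 1.25-fold higher, so the signals of these 2 kinases were opposite in direction to that of Pdk4.

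Relatives of the measured enzymes and the usual liver-specific ends of the pathways are set beside them. Pklr, the liver pyruvate kinase, had 446 and 352, 1.27-fold lower, and its 3 probe sets lay between −0.34 and −0.32. Pck1, the cytosolic carboxykinase of gluconeogenesis, had 3796 and 4665, 1.23-fold higher, and its second probe set gave 0.51. G6pc, the liver glucose 6-phosphatase, had 2700 and 2558, a log2 ratio of −0.078. Pck1 and Pklr, which make and use up phosphoenolpyruvate, thus lay on opposite sides of 0. Ratios at least as high as that of Pck1 were found in 5.8% of bright genes. For Pklr, 4.81% had ratios at least as low.

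Isoenzymes that are typical of other cells or tissues ran both ways. Hk1, Hk2 and Hk3, the low-Km hexokinases, had log2 ratios of 0.066, −0.42 and 0.14, and Hk2, like G6pc3, passed the filter through its control signal. Pkm, the pyruvate kinase of most other tissues, was named above. Pfkfb2, a relative of Pfkfb3, had 29.3 and 40.3, and Pfkm, the muscle phosphofructokinase, had 133 and 146. Aldoa, Aldoc and Eno3 had log2 ratios of −0.049, 0.28 and 0.017, and Pygb, the brain phosphorylase, had 0.27. Ldhb, the heart-type lactate dehydrogenase subunit, had 112 and 81.2, 1.38-fold lower, with all 4 probe sets lower. Summed endothelial markers were lower and summed stellate markers higher on the diosgenin array, and their part in the values of these isoenzymes was not tested.

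**Figure D4:**
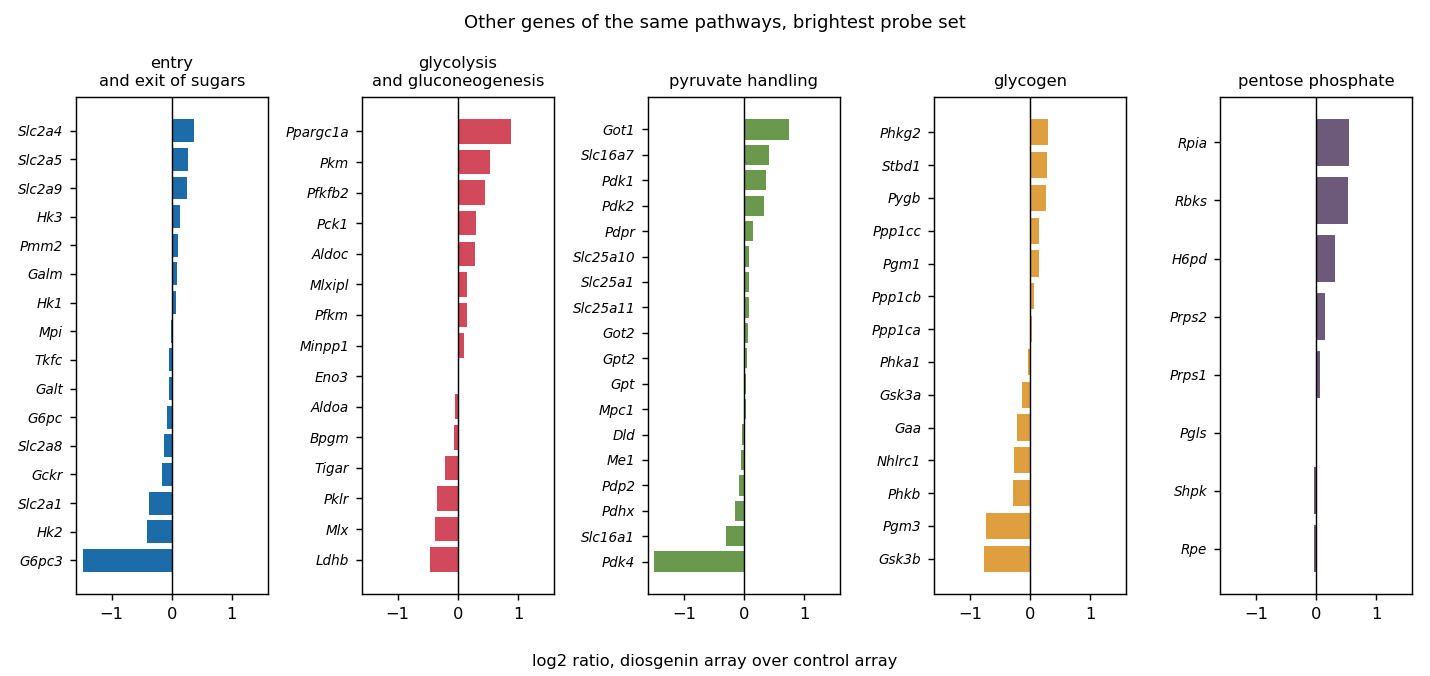
Log2 ratio of the diosgenin over the control array for the brightest probe set of each of 71 further pathway genes above the filter, as bars from 0 in 5 panels by pathway step. Most bars are short, whereas Pdk4 (2.83-fold lower) and G6pc3 (a log2 ratio of −1.48, above the filter level in the control pool alone) reach far to the left and Ppargc1a (0.88) and Got1 (0.74) to the right.

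The promoters were compared because several carbohydrate genes are known targets of factors that bind the E-box CACGTG, among them ChREBP with MLX and the clock pair CLOCK and BMAL1. RefSeq windows of 300 bases, 250 before and 50 after a start, were found for 26 of the 28 genes, 33 windows in all, and none was matched for Gys2 and Ppp1r3b. An E-box, which reads the same on both strands, was present in 6 of the 33 windows, 18.2%, against 7.15% of all 32851 windows of the table and 10.2% of the 10231 windows of genes above the signal filter. A GC box was present in 25 windows, 75.8%, against 35.7% of all windows and 62.6% of those of genes above the filter. The sequence TGACGT or its reverse complement ACGTCA, the first letters of a cAMP response element, was in 6 windows, and ACGTG or CACGT, the central letters of the hypoxia response element, which every E-box contains, was in 14. These are 18.2% and 42.4% of the windows, against 7.51% and 19.6% of all windows and 11.7% and 26.0% of those of genes above the filter.

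The 7 E-boxes lay in the windows of 6 genes and are printed with their flanks, 30 bases each, with the motif in capitals, on the strand of the gene. The coordinates on GRCm38.p6 are chr2:11502126-11502155 for Pfkfb3, chr3:20155091-20155120 for Gyg and chr19:36736691-36736720 for Ppp1r3c on the minus strand. On the plus strand they are chr5:30921476-30921505 for Khk, chr7:46845647-46845676 and chr7:46845744-46845773 for Ldha and chr19:4510222-4510251 for Pcx.
Pfkfb3: cacccttctctcCACGTGaaagggggctgg
Gyg: agcctgcgcggcCACGTGacggccgctata
Khk: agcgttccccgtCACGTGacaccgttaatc
Ldha (upstream site): ggtgtcgcagcaCACGTGgagccactcttg
Ldha: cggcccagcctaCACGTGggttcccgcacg
Pcx: ccCACGTGaggctttcaagaaaagagagta
Ppp1r3c: gagggaccggttCACGTGatctggctttga

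The first base of the motif lay 53 bases before the start in Pfkfb3, 71 in Khk, 145 and 48 in Ldha, 248 in Pcx and 104 in Ppp1r3c, and 8 bases after it in Gyg. The genes with an E-box lay on both sides of 0. Pfkfb3, Pcx, Ldha and Khk had log2 ratios of 0.47, 0.23, 0.11 and 0.018, and Gyg and Ppp1r3c both −0.21. A match is a stretch of letters and not a bound site.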

How the data were processed

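Liver RNA, pooled from 3 mice per diet, was measured on 2 Affymetrix arrays, 1 per diet. The values deposited by the authors are linear intensities, 1 signal for each of 45101 probe sets. GCOS is named without a version in the submitters' processing notes, while the sources used here do not give the summary algorithm, scaling target or detection calls. A 2% trimmed mean of 96.9 on both arrays shows a common scaling in the deposited intensities.

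Names came from the annotation of the platform: 34958 had 1 symbol, 932 several and 9211 were unnamed here. The floor was the 40th percentile of all signals and the filter the 60th percentile of probe set means. The log2 ratio of the diosgenin over the control array was computed for the brightest probe set of each gene, with Python 3.11.15, pandas 2.3.3 and NumPy 2.4.6, and checked on simulated data. Differences of 1.2-fold and 1.5-fold were counted as a description, since 1 array per diet allows no test and the number of arrays limits the precision. All 28 genes are named. Of the other pathway genes the 8 widest ratios above the filter and the isoenzymes are, and for the cell type markers the sums and the genes under the floor. Named beyond these, with their values known, were Slc2a1, Slc2a4, Pdhx, Dld, Pgls, Prps1, Rbks and H6pd. The same holds for the markers Alas2, Cela1, Col1a1 and Col3a1. The genes, lists and motifs were chosen with earlier results of these data known. Alternatives changed the floor, the filter, the choice of probe set and the scaling. The marker lists covered hepatocytes, Kupffer cells and macrophages, liver endothelium, stellate, biliary, red, lymphocyte, skeletal muscle, adipocyte and pancreatic acinar cells. Promoter windows are from RefSeq, GRCm38.p6.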

Additional observations from a re-analysis of the deposited data

Results flagged for a closer look

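Readings outside the brightest probe sets stood out for 2 genes, each above the filter and at least 1.5-fold higher on the diosgenin array. The third Pgk1 probe set had a log2 ratio of 2.68, with 100 and 643, whereas the others of this gene had −0.071 and −0.17. A dim Mdh1 probe set had a log2 ratio of 0.61, with 36.9 and 56.3, whereas the 3 bright ones had 0.027, 0.14 and 0.0098. With 1 array per diet no sample could be set against others of its group.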

How the results depend on the processing

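No paired analysis was possible because each diet had 1 array, and no array could be left out. Under 8 alternatives (other floors, other filters, the median of all probe sets, shared, alternative and control probe sets left out, median centring and quantile normalization) the 28 genes gave 213 log2 ratios. The 111 under the 4 floor and filter settings could not move, because all signals of the 28 brightest probe sets exceed those floors, and show nothing about stability. Of the other 102 values 72 differed from the main one, all by less than 0.28, the standard deviation between probe sets of all genes. Median centring shifted every gene by the same small amount, and genes with 1 probe set could not move with the choice of probe set. Dlat moved from −0.0030 to −0.17 with shared, alternative and control probe sets left out, more than the 0.16 of bright probe sets. The sign held under the other 4 alternatives, where run, for 24 genes, 15 higher and 9 lower, and not for Slc37a4, Gapdh, Mdh2 and Dlat. The count of genes at least 1.2-fold higher was 2 or 3 throughout, but only Slc2a2 was among them in every setting. Pfkfb3 was under 1.2-fold with the median of all probe sets, at 0.25, and was left out by the filter at the 75th percentile. Ugp2 was under 1.2-fold with shared, alternative and control probe sets left out, at 0.21. The count at least 1.2-fold lower was 1 instead of 0 with the median of all probe sets and with shared, alternative and control probe sets left out, in both cases Gyg, at −0.27 and −0.33, and the latter setting left 18 of the 28 genes. No gene reached 1.5-fold under any of them. The median of the other pathway genes was 0.017 with the median of all probe sets. Of them, 5 were at least 1.5-fold higher without the filter and 1 under a filter at the 75th percentile. The widest range among the 28 genes was that of Pfkfb3, from 0.25 to 0.48.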
